A study of Saccharomyces pastorianus with 12 samples.

Results

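SpIB1 and SpIB2 are strains of Saccharomyces pastorianus, the hybrid of S. cerevisiae and S. eubayanus used to brew lager, and their transcripts were set side by side on day 5 of fermentation. The comparison used 6 of the 12 RNA-seq libraries of the series, 3 of SpIB1 and 3 of SpIB2, picked by the strain and day in their labels. Both strains had fermented standard brewing wort at 16 °C, and the labels name no mutation, added agent or other treatment for either. Nothing in the labels states that the 3 libraries of a strain were separate fermentations. The p-values rest on the spread within groups over all 12 libraries, day 2 included, and this spread may be technical. On day 5 it was wider in SpIB2, where edgeR's coefficient of variation between libraries was 0.38, against 0.21 in SpIB1. The series asks which genes stand behind a different use of maltose and maltotriose. Of 11312 gene copies listed, 10659 passed a filter on low counts and were tested. A copy is named by a gene symbol and a number (MAL31_2), and the files do not say which parent species a number stands for.

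Wort sugar is mainly maltose, with maltotriose and glucose beside it. Yeast imports maltose through proton symporters, splits it to glucose inside the cell with maltases and switches both on through the MAL activators, while glucose represses them. Growing yeast spends much of its transcription on ribosomes. Yeast that slows down makes fewer ribosomes and more storage sugar, chaperones and respiratory enzymes. The roles given for genes below are those of the S. cerevisiae genes of the same symbol.

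SpIB2 differed from SpIB1 across most of the transcriptome. Of the 10659 copies, 3191 were higher in SpIB2 (29.9%) and 2824 lower (26.5%), where higher and lower mean an adjusted p under 0.05 in edgeR's quasi-likelihood test. Both shares lay within 10 percentage points of these in the lists of hexose transport and glucose signalling, glycerol and acetate, gluconeogenesis and glyoxylate cycle, beta-oxidation and peroxisome, aroma, sulfate assimilation and methionine, purine synthesis, phosphate, thiamine, mitochondrial import and multidrug and metal export. Read totals were 5180189 to 5766874 in SpIB2 and 6589832 to 8020151 in SpIB1. Reads were more concentrated in SpIB2, where the 100 top copies held 24.5 to 32.7% of them, against 19.1 to 21.2% in SpIB1. The TMM scaling factors were 0.51, 0.87 and 0.89 in SpIB2 and 1.24, 1.35 and 1.24 in SpIB1. Scaling by library totals without TMM moved the median log2 fold change of all copies from 0.03 to -0.72, and 1502 copies were then higher (14.1%) and 4863 lower (45.6%). All of these 1502 were higher under TMM too, and the 2824 lower copies stayed lower. Counts are therefore given under both scalings, and a median that changes sign is said to do so. In SpIB2, replicate 1 correlated less with replicates 2 and 3 (Pearson r 0.922 and 0.914, log2 CPM over copies) than these did with each other (0.970), against 0.966 to 0.985 in SpIB1. Named copies and list counts (of at least 4 in either fit) that moved by over 1.5 times without a library, and list medians that changed sign, are given without it. CPM are read counts scaled to a common library size after TMM scaling, listed in the order of replicates 1 to 3. Statements below on overlap, and on the highest or lowest library, refer to this scale. Of all tested copies, 31.2% had every SpIB2 library above SpIB1 and 30.8% had every SpIB2 library below, so a lack of overlap was common. In RNA from whole cultures, fewer cells in a state and less RNA per cell cannot be told apart.

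**Figure D1:**
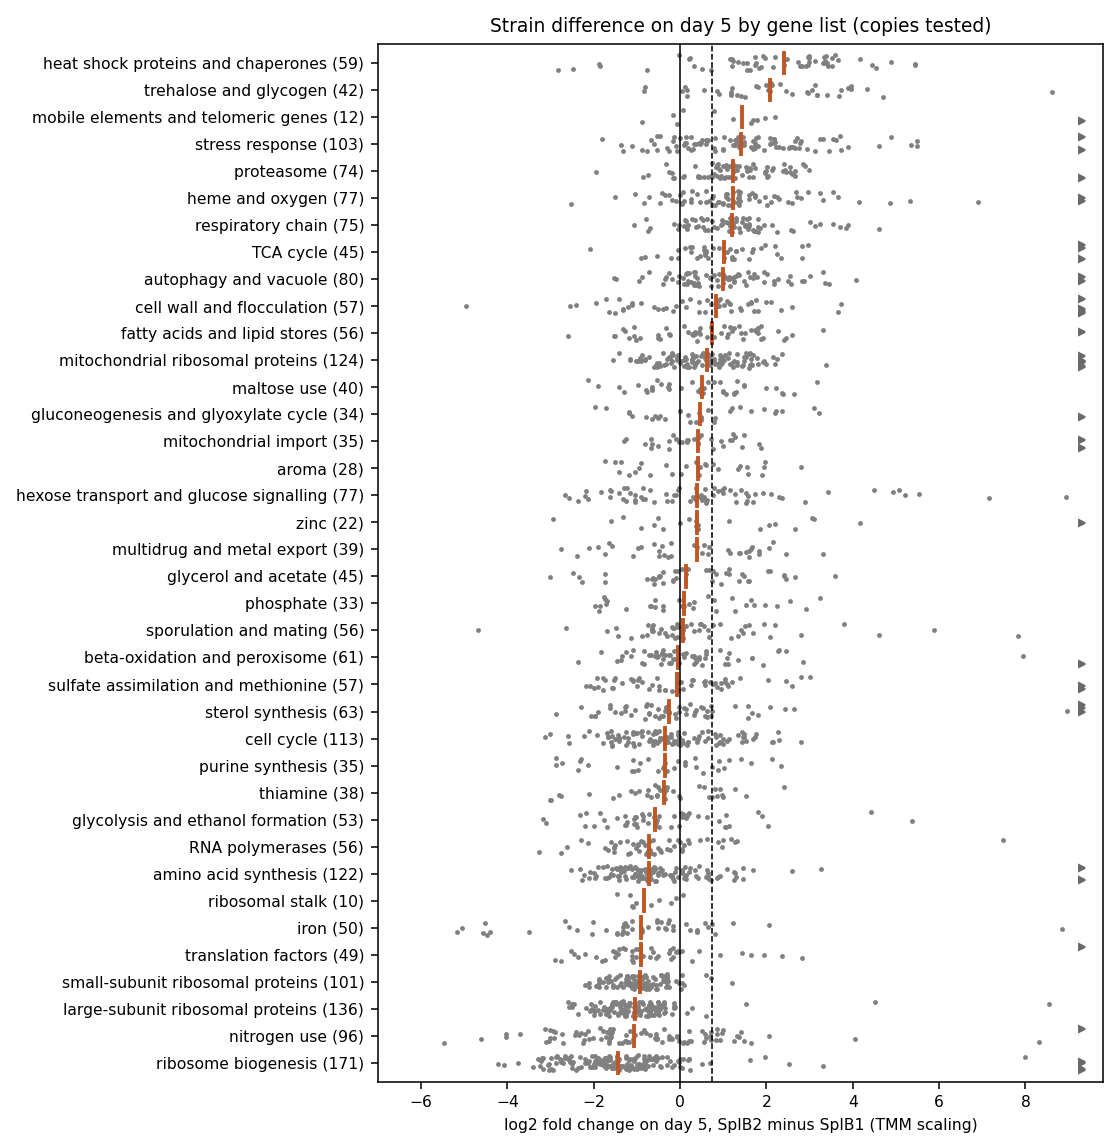
Log2 fold change of every tested copy in the gene lists, SpIB2 minus SpIB1 on day 5, with TMM scaling (x axis); each dot is a copy, each bar the list median and the number in brackets the copies tested. The solid line marks 0 and the dashed line the zero of library totals, triangles at the right edge are copies past the axis, and the medians of chaperones and of trehalose and glycogen lie farthest right and that of ribosome biogenesis farthest left.

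On the way from maltose to glucose, SpIB2 had more transcript of the MAL activators and less of the maltases, and the transporters were split between copies. Of the 40 copies, 15 were higher and 5 lower (7 and 15 with library totals), and the median log2 fold change was 0.51 and changed sign to -0.24 with library totals. The maltose permease MAL31 has 7 copies. MAL31_1 stood at 915, 1224 and 1457 CPM in SpIB1 and 1381, 899.6 and 727 CPM in SpIB2 (a log2 fold change of -0.26 ± 0.36 SE, adjusted p = 0.565 by edgeR). MAL31_2 stood at 548, 731 and 856 CPM in SpIB1 and 1561, 1043 and 1481 CPM in SpIB2 (a log2 fold change of 0.94 ± 0.35 SE, adjusted p = 0.036 by edgeR). The libraries of the strains overlapped for MAL31_1, while all 3 SpIB2 libraries lay above SpIB1 for MAL31_2. Of the scarcer copies MAL31_4 was higher at 16.6, 15.4 and 19.7 against 79.3, 34.2 and 31.3 CPM, and MAL31_3, MAL31_5, MAL31_6 and MAL31_7 did not pass the test (log2 fold changes -0.65 to -0.25). Summed over its copies, MAL31 stood at 1579, 2076 and 2460.5 CPM in SpIB1 and 3103, 2046 and 2323 CPM in SpIB2 (a log2 fold change of 0.23 ± 0.33 SE, adjusted p = 0.559 by edgeR). MAL11, which takes up maltotriose among other alpha-glucosides, has 3 copies that did not move together. MAL11_1 stood at 60.2, 75.6 and 76.4 CPM in SpIB1 and 66.3, 48.5 and 59.2 CPM in SpIB2 and overlapped between the strains (a log2 fold change of -0.29 ± 0.24 SE, adjusted p = 0.313 by edgeR). The second copy MAL11_2 was at 69, 80.8 and 86.5 CPM in SpIB1 and 37.4, 29.7 and 21.8 CPM in SpIB2, lower in every SpIB2 library (a log2 fold change of -1.42 ± 0.27 SE, adjusted p = 0.00053 by edgeR). MAL11_3 stood at 6.94, 9.69 and 22.4 CPM in SpIB1 and 88.2, 53.3 and 61 CPM in SpIB2, higher in every SpIB2 library (a log2 fold change of 2.36 ± 0.49 SE, adjusted p = 0.00109 by edgeR). Their sum did not pass the test (-0.12 ± 0.26), although with library totals it was lower (-0.82). The permease MPH3 stood at 18.1, 16.3 and 14.3 against 8.24, 9.52 and 12.8 CPM (a log2 fold change of -0.66 ± 0.28 SE, adjusted p = 0.0555 by edgeR), and it was lower in the fit of counts per symbol (a log2 fold change of -0.70 ± 0.28 SE, adjusted p = 0.0461 by edgeR). Under library totals the calls of MAL31_2 and MAL31_4 ended, and MAL31_1, MAL31_3, MAL31_5, MAL31_6, MAL31_7, MAL11_1, MAL11 summed and MPH3 were called lower. Calls ended of MAL31_2 (0.74 to 1.06) without any 1 of SpIB1 replicate 1, SpIB1 replicate 2, SpIB1 replicate 3, SpIB2 replicate 1 or SpIB2 replicate 3, of MPH3 summed (-0.74 to -0.56) without any 1 of SpIB1 replicate 1, SpIB1 replicate 2, SpIB1 replicate 3, SpIB2 replicate 1 or SpIB2 replicate 2. The test was passed by MPH3 (-0.86) without SpIB2 replicate 3. Leaving out a library gave log2 fold changes of 2.98 for MAL11_3 without SpIB1 replicate 3. In a fit of the day 5 libraries alone, the calls of MAL31_2 and MPH3 summed ended and MAL31_6 passed the test. With DESeq2, MPH3 passed the test. With median-ratio size factors, the call of MPH3 summed ended.

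Of the 5 maltase copies, 4 were lower in SpIB2. MAL32_1 stood at 4234, 6102 and 6111 CPM in SpIB1 and 3087, 3437 and 3095 CPM in SpIB2, with every SpIB2 library below SpIB1, and did not pass the test (a log2 fold change of -0.77 ± 0.37 SE, adjusted p = 0.0847 by edgeR). MAL32_2 stood at 84.4, 166 and 204 CPM in SpIB1 and 29.2, 36.6 and 37.2 CPM in SpIB2 (a log2 fold change of -2.14 ± 0.33 SE, adjusted p = 0.000126 by edgeR). MAL62 stood at 98.7, 187 and 216 CPM in SpIB1 and 37.1, 51.7 and 44.9 CPM in SpIB2 (a log2 fold change of -1.91 ± 0.33 SE, adjusted p = 0.000309 by edgeR). MAL12_1 and MAL12_2 were lower at log2 fold changes close to each other (-1.30 ± 0.32 and -0.97 ± 0.31). The libraries of the strains did not overlap for any maltase copy, where 30.8% of all tested copies had every SpIB2 library below SpIB1. Of the 7 activator copies, 6 were higher. The MAL activator MAL63 stood at 6.69, 5.99 and 6.63 CPM in SpIB1 and 51.8, 35.5 and 34.3 CPM in SpIB2, a narrow range in SpIB1 (a log2 fold change of 2.65 ± 0.25 SE, adjusted p = 2.17e-06 by edgeR). MAL33_1, MAL33_2 and MAL33_3 were higher by 1.25 ± 0.23, 1.48 ± 0.22 and 2.37 ± 0.36 on the log2 scale, and the sum for MAL33 rose from 102, 182 and 145 CPM in SpIB1 to 732, 514 and 451 CPM in SpIB2. Both copies of ZNF1, a zinc-cluster factor that acts on maltose and respiratory genes, were higher (2.22 ± 0.43 and 2.0 ± 0.39). MAL13 stood at 21.4, 31.6 and 32.9 against 49.8, 38.5 and 37 CPM and did not pass the test (a log2 fold change of 0.54 ± 0.25 SE, adjusted p = 0.0784 by edgeR). The isomaltases IMA1, IMA2 and IMA5 split isomaltose and related sugars, and of their 17 copies, 6 were higher and 0 lower (1 and 2 with library totals). IMA1_1 stood at 158, 227 and 213 against 243, 284 and 406 CPM and did not pass the test (a log2 fold change of 0.64 ± 0.34 SE, adjusted p = 0.119 by edgeR), and IMA2_9 was higher at 91, 99 and 115 against 362, 205 and 201 CPM (a log2 fold change of 1.33 ± 0.30 SE, adjusted p = 0.00177 by edgeR). IMA1_2, IMA1_3, IMA2_3, IMA2_6 and IMA5_4 were also higher (log2 fold changes 1.24 ± 0.28, 3.17 ± 0.54, 1.0 ± 0.33, 0.99 ± 0.26 and 1.29 ± 0.46), and the other 10 copies, with IMA5_5 at 105, 95.4 and 105 against 181, 122 and 145 CPM, did not pass the test. Under library totals the calls of MAL33_1, IMA2_9, IMA1_2, IMA2_3, IMA2_6 and IMA5_4 ended, and MAL32_1 was called lower. Calls ended of IMA2_3 (0.81 to 0.99) without any 1 of SpIB1 replicate 1, SpIB1 replicate 3 or SpIB2 replicate 2, of IMA5_4 (1.06 to 1.37) without any 1 of SpIB1 replicate 1, SpIB1 replicate 2, SpIB1 replicate 3, SpIB2 replicate 2 or SpIB2 replicate 3, of MAL12_2 (-0.74) without SpIB1 replicate 3. The test was passed by IMA5_5 (0.68) without SpIB2 replicate 2. With DESeq2, MAL32_1, MAL13, IMA1_1 and IMA5_5 passed the test. With median-ratio size factors, IMA5_5 passed the test.

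**Figure D2:**
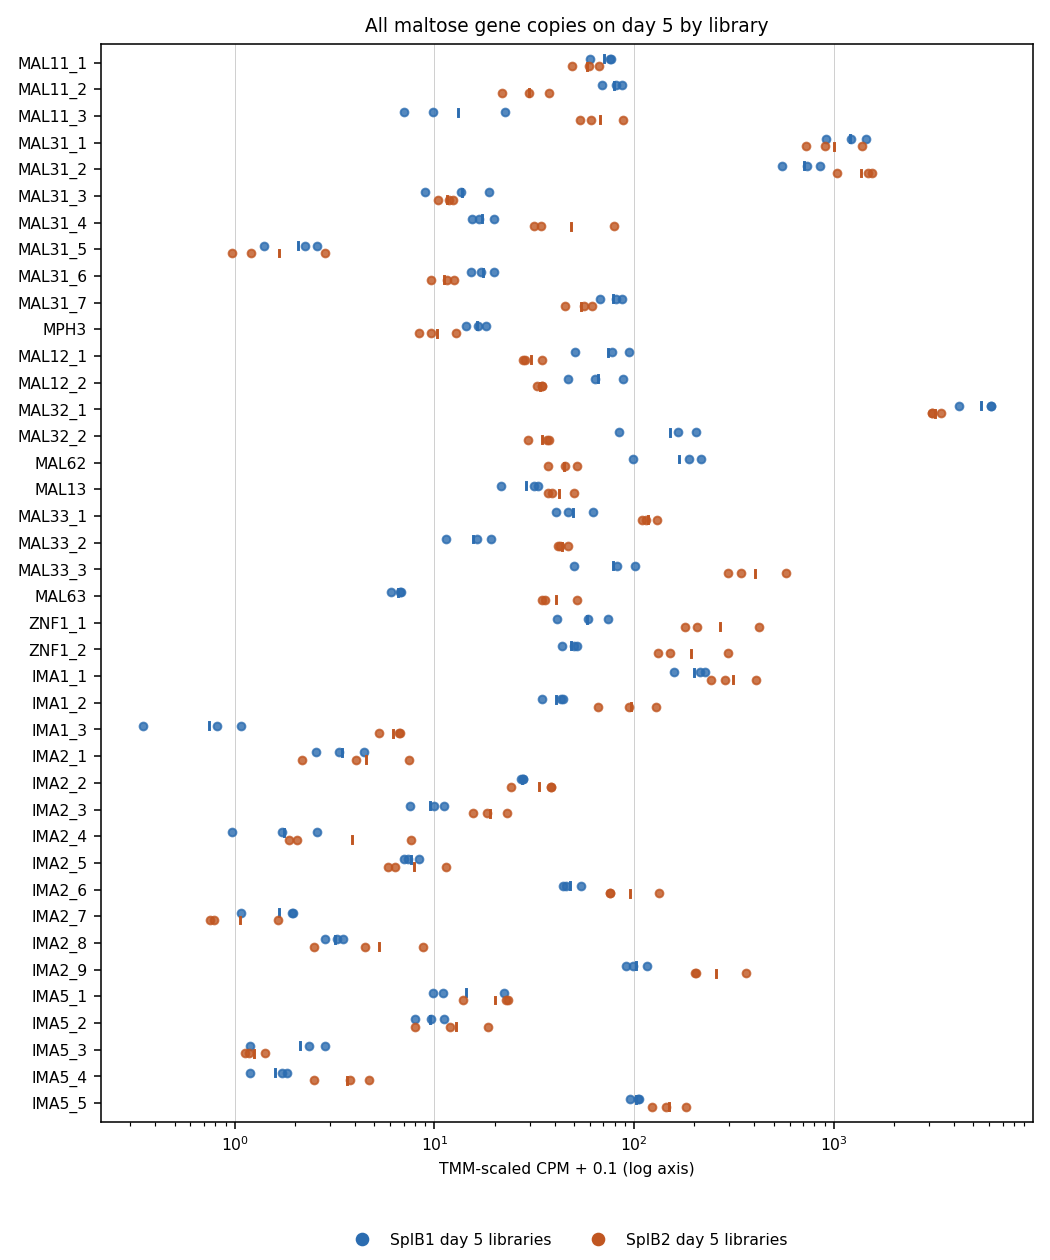
TMM-scaled CPM (log axis) plus 0.1 of all 40 maltose gene copies, 1 dot for each day 5 library and a vertical bar for the mean of the strain's 3 libraries. The activators MAL33, MAL63 and ZNF1 lie higher in SpIB2, the maltases lower, and MAL11_1 and MAL31_1 overlap between the strains.

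Among hexose transporters, copies were called in both directions at shares near those of all copies. Of 37 copies, 13 were higher and 9 lower (9 and 16 with library totals), which is 35.1% and 24.3% against 29.9% and 26.5% of all copies, and the median log2 fold change was -0.30 and was -1.06 with library totals. The low-affinity transporter copy HXT3_2 stood at 76.8, 68.9 and 113 CPM in SpIB1 and 6024, 2264 and 1268 CPM in SpIB2 (a log2 fold change of 5.21 ± 0.73 SE, adjusted p = 5.58e-05 by edgeR). The high-affinity HXT6 stood at 809, 1037 and 1464 CPM in SpIB1 and 16631, 4838 and 3099 CPM in SpIB2 (a log2 fold change of 2.89 ± 0.68 SE, adjusted p = 0.00252 by edgeR). SpIB2 replicate 1 was the highest library for both, and the other SpIB2 libraries also lay above SpIB1. HXT3_3 and HXT13_3 were higher by 5.06 ± 0.66 and 5.54 ± 0.75 on the log2 scale. The transporter copies named here were chosen by size of difference or by abundance and all were higher. None of the 9 lower copies is named. In glucose signalling, MTH1_2, a repressor of hexose transporter genes that glucose removes, was lower at 133, 217 and 225 against 53.6, 23.6 and 20.9 CPM, and HXK2, the hexokinase that also takes part in glucose repression, at 117, 154 and 154 against 21.3, 43.7 and 28.8 CPM. The repressor NRG2_1 was higher (2.30 ± 0.36), as were SNF1_2, the kinase that lifts glucose repression, its activating subunit SNF4_1 and its targeting subunit GAL83_1 (1.73 ± 0.39, 1.54 ± 0.23 and 1.53 ± 0.30), while the upstream kinase ELM1_1 was lower (-1.61 ± 0.28). Log2 fold changes were 4.35 for HXT3_2, 1.84 for HXT6, 4.19 for HXT3_3, 4.36 for HXT13_3 and 1.07 for SNF1_2 without SpIB2 replicate 1.

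In glycolysis and ethanol formation, copies of pyruvate kinase and pyruvate decarboxylase were lower and copies of 2 glucose-phosphorylating enzymes higher. Of the 53 copies, 8 were higher and 20 lower (4 and 30 with library totals), and the median log2 fold change was -0.58 and was -1.34 with library totals. Both copies of pyruvate kinase were lower, CDC19_1 at 2133, 2489.8 and 2791 against 472, 679 and 699 CPM and CDC19_2 at 2415, 3013 and 3590.4 against 657, 949 and 889.6 CPM (a log2 fold change of -1.85 ± 0.37 SE, adjusted p = 0.000736 by edgeR). The phosphofructokinase copy PFK1_2 stood at 113, 103 and 113 against 24.4, 25.8 and 21.4 CPM, and PFK27_1, which makes its activator fructose 2,6-bisphosphate, at 177, 110.2 and 89.5 against 19.6, 27.1 and 28.6 CPM. In none of these did the strains overlap. The pyruvate decarboxylase copies PDC1_1, PDC5_1 and PDC6_2 were lower at log2 fold changes of -1.07 ± 0.34, -1.69 ± 0.40 and -3.10 ± 0.42, and the alcohol dehydrogenase ADH1_1 stood at 3122, 3985 and 5398 against 1591, 2095 and 2311 CPM (a log2 fold change of -1.06 ± 0.39 SE, adjusted p = 0.0325 by edgeR). Other members were higher in SpIB2. The glucose-phosphorylating enzymes HXK1_2 and GLK1 rose against HXK2, at 197, 702 and 910.4 against 2681, 2305 and 2452 CPM for HXK1_2 and 575, 1439 and 1912 against 7868, 3785 and 2967 CPM for GLK1. The aldolase copy FBA1_2 and the phosphoglycerate mutase copy GPM1_2 were higher (4.42 ± 0.47 and 5.37 ± 0.49), but the sums over copies did not pass the test for FBA1 (-0.32 ± 0.36) or GPM1 (0.15 ± 0.43). Under library totals the call of GLK1 ended. The 20 lower copies numbered 13 without SpIB1 replicate 3. Calls ended of ADH1_1 (-1.13 to -0.86) without any 1 of SpIB1 replicate 2, SpIB1 replicate 3, SpIB2 replicate 1 or SpIB2 replicate 2, of PDC1_1 (-0.97) without SpIB1 replicate 3. In a fit of the day 5 libraries alone, the call of ADH1_1 ended.

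Of the 10 copies, 1 was higher and 4 lower (0 and 7 with library totals) for glycerol synthesis and export, and of the 11 copies, 5 were higher and 1 lower (1 and 3 with library totals) for its uptake and use. Both copies of the glycerol phosphatases GPP1 and GPP2, which make glycerol, were lower, with GPP1_1 at 622, 323 and 283 against 40.5, 64.9 and 46.4 CPM (a log2 fold change of -3.01 ± 0.41 SE, adjusted p = 4.35e-05 by edgeR) and GPP1_2, GPP2_1 and GPP2_2 at log2 fold changes of -2.35 ± 0.56, -2.27 ± 0.46 and -1.73 ± 0.38. The mitochondrial glycerol phosphate dehydrogenase copy GUT2_2 stood at 503, 477 and 962 against 6832, 1715 and 1814 CPM (a log2 fold change of 2.42 ± 0.67 SE, adjusted p = 0.00711 by edgeR), and the glycerol kinase copy GUT1_3 and the dihydroxyacetone kinase DAK1_2 were higher (2.09 ± 0.60 and 1.57 ± 0.35). None of these overlapped between the strains. In acetate metabolism the acetyl-CoA synthetase copy ACS2_1 was lower at 980.1, 392 and 547 against 94.4, 150.0 and 99.9 CPM, and the mitochondrial aldehyde dehydrogenase ALD4_2 and the CoA transferase ACH1_6 were higher (2.66 ± 0.48 and 3.58 ± 0.57). Over glycerol and acetate genes together, of the 45 copies, 16 were higher and 8 lower (6 and 17 with library totals), and the median log2 fold change was 0.14 and changed sign to -0.72 with library totals. The calls of GUT1_3 and DAK1_2 ended with library totals. The 16 higher copies numbered 10 without SpIB1 replicate 1 and 10 without SpIB1 replicate 2. The 5 higher copies of glycerol uptake and use numbered 3 without SpIB1 replicate 1 and 3 without SpIB1 replicate 2. The median of the list was -0.22 without SpIB2 replicate 1. Values moved to 1.44 for GUT2_2, 1.41 for GUT1_3 and 2.63 for ACH1_6 without SpIB2 replicate 1, -3.02 for GPP1_2 without SpIB2 replicate 2.

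The activators ADR1 and CAT8 of growth on non-fermentable carbon had higher copies in SpIB2, while enzymes of gluconeogenesis and the glyoxylate cycle moved both ways. Of the 34 copies, 10 were higher and 6 lower (5 and 13 with library totals), and the median log2 fold change was 0.46 and changed sign to -0.40 with library totals. ADR1_2, an activator of genes for ethanol and fat use, stood at 28.2, 23.1 and 32.9 against 604, 93.7 and 85 CPM (a log2 fold change of 3.21 ± 0.63 SE, adjusted p = 0.000765 by edgeR). CAT8_2, the activator of gluconeogenic genes, stood at 60, 64.1 and 85.5 against 742, 213 and 129.9 CPM (a log2 fold change of 2.37 ± 0.54 SE, adjusted p = 0.00217 by edgeR), and CAT8_1 was higher as well (2.22 ± 0.51). SIP4_1, a related activator, was lower (-1.72 ± 0.29). SpIB2 replicate 1 was the highest library for ADR1_2 and both CAT8 copies, and the other SpIB2 libraries also lay above SpIB1. The pyruvate carboxylase copy PYC1_1 was higher (3.10 ± 0.69) and PYC2_2 lower (-1.97 ± 0.49), and PCK1_1, the enzyme of the first committed step of gluconeogenesis, stood at 8.3, 6.86 and 18 against 123, 22.3 and 11 CPM and overlapped (a log2 fold change of 2.21 ± 0.65 SE, adjusted p = 0.0101 by edgeR). Of the 61 copies, 15 were higher and 14 lower (9 and 31 with library totals) in beta-oxidation and the peroxisome, and the median log2 fold change was -0.05 and was -0.81 with library totals. Of the 10 copies, 5 were higher and 0 lower (4 and 2 with library totals) in the carnitine shuttle, which carries acetyl groups between compartments, and the higher ones included the carnitine transporter copies AGP2_1 and AGP2_2 (2.45 ± 0.40 and 2.28 ± 0.34) and the acetyltransferase YAT1_4 (2.26 ± 0.29). Of the 24 copies of peroxins and regulators, 6 were higher and 7 lower (3 and 12 with library totals). The fatty acid response factor copies OAF1_1 and PIP2_1 were lower (-1.37 ± 0.26 and -1.46 ± 0.22), as was the peroxisomal ATP carrier copy ANT1_1 (-2.36 ± 0.48), and the peroxisome assembly factor copy PEX3_2 was higher (2.84 ± 0.41). The call of PCK1_1 ended with library totals. The median of beta-oxidation and peroxisome was 0.029 without SpIB2 replicate 2 and 0.029 without SpIB2 replicate 3. Calls ended of PCK1_1 (0.58) without SpIB2 replicate 1. The log2 fold change became 1.66 for ADR1_2, 1.29 for CAT8_2, 1.21 for CAT8_1, 1.54 for PYC1_1, 1.83 for AGP2_1 and 2.22 for PEX3_2 without SpIB2 replicate 1. With limma voom, the call of PCK1_1 ended.

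Genes of mitochondrial respiration were higher in SpIB2. Of the 45 copies, 25 were higher and 2 lower (13 and 8 with library totals) in the TCA cycle, and the median log2 fold change was 1.02 and was 0.07 with library totals. Of the 75 copies, 46 were higher and 2 lower (22 and 5 with library totals) in the respiratory chain and ATP synthase, and the median log2 fold change was 1.21 and was 0.44 with library totals. CIT2, a citrate synthase of the peroxisome and not of the mitochondria, stood at 667, 414 and 313 CPM in SpIB1 and 2381, 2493 and 1719.5 CPM in SpIB2 (a log2 fold change of 2.24 ± 0.40 SE, adjusted p = 0.000372 by edgeR). The lipoamide dehydrogenase copy LPD1_2 stood at 106, 121 and 128 against 1623, 572 and 559 CPM (a log2 fold change of 2.95 ± 0.43 SE, adjusted p = 7.58e-05 by edgeR). The SpIB2 libraries all lay above SpIB1 for both. The complex III subunit copy QCR6_2 stood at 756, 439 and 804 against 20495, 3089.8 and 5158 CPM (a log2 fold change of 3.85 ± 0.67 SE, adjusted p = 0.000296 by edgeR), and QCR8_2 and the external NADH dehydrogenase NDE2_2 were higher by 3.14 ± 0.43 and 3.0 ± 0.46 on the log2 scale. In complex IV, COX9_2 was higher (2.25 ± 0.33), and in ATP synthase the stalk subunit ATP4_2 (2.57 ± 0.35). STF2_2, an ATP synthase stabilising factor that is also a desiccation hydrophilin, stood at 141, 591 and 398 CPM in SpIB1 and 7724, 8713 and 11149.6 CPM in SpIB2 (a log2 fold change of 4.61 ± 0.57 SE, adjusted p = 2.24e-05 by edgeR). HAP4, the limiting subunit of the activator of respiratory genes, was higher in both copies: HAP4_1 stood at 318, 260.3 and 353 against 4219.7, 1189 and 1065 CPM (a log2 fold change of 2.80 ± 0.54 SE, adjusted p = 0.000641 by edgeR), and HAP4_2 had no read in SpIB1 and 8989, 1738 and 1747 CPM in SpIB2. Leaving out a library gave log2 fold changes of 2.25 for LPD1_2, 2.62 for QCR6_2, 2.23 for NDE2_2 and 1.85 for HAP4_1 without SpIB2 replicate 1.

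Genes of heme and low oxygen were higher more often than lower in SpIB2. Of the 77 copies, 47 were higher and 2 lower (25 and 10 with library totals), and the median log2 fold change was 1.22 and was 0.38 with library totals. In heme synthesis, of the 16 copies, 8 were higher and 1 lower (5 and 3 with library totals), and the median log2 fold change was 0.67 and changed sign to -0.06 with library totals. HEM12_2 stood at 41.4, 45 and 45.6 against 313, 260.2 and 284 CPM, HEM13_2, a step that uses oxygen, at 59, 47.8 and 54.1 against 208, 252 and 269 CPM and HEM4_2 at 17.6, 24.8 and 23.7 against 121, 137 and 142 CPM. The hypoxic isoforms CYC7_1 of cytochrome c and COX5B_2 of complex IV were higher (3.55 ± 0.47 and 3.25 ± 0.44), as was the anaerobic wall mannoprotein TIR1_1, at 335, 90.6 and 167 CPM in SpIB1 and 3868, 1672 and 1971 CPM in SpIB2 (a log2 fold change of 3.66 ± 0.55 SE, adjusted p = 0.000101 by edgeR). None of these overlapped between the strains. Of the 23 copies, 13 were higher and 0 lower (8 and 3 with library totals) among the anaerobic wall proteins, and of the 26 copies, 19 were higher and 1 lower (9 and 3 with library totals) among regulators, with SUT1_2, a factor for sterol uptake, and SPT23_1, which controls the desaturase OLE1, higher by 3.30 ± 0.41 and 2.69 ± 0.34 on the log2 scale. The 2 lower copies numbered 5 without SpIB2 replicate 1. The 1 lower copy of regulators numbered 4 without SpIB2 replicate 1.

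Storage carbohydrate genes were among the lists with the highest medians. Of the 42 copies, 32 were higher and 2 lower (23 and 3 with library totals), and the median log2 fold change was 2.08 and was 1.18 with library totals. TPS1_1, which makes trehalose phosphate, stood at 54.8, 179 and 228 CPM in SpIB1 and 2693, 2117 and 1255 CPM in SpIB2 (a log2 fold change of 3.72 ± 0.55 SE, adjusted p = 9.12e-05 by edgeR). The vacuolar or secreted trehalase copy ATH1_2 stood at 42.5, 50.6 and 69.3 against 1455, 558 and 379 CPM and the phosphatase TPS2_2 at 61.9, 110.1 and 149.8 against 1128, 375 and 262 CPM, a gene of breakdown and a gene of synthesis. GSY2_2, glycogen synthase, stood at 43.2, 99.7 and 118 CPM in SpIB1 and 3278, 2122 and 1326 CPM in SpIB2 (a log2 fold change of 4.69 ± 0.70 SE, adjusted p = 8.71e-05 by edgeR). The branching enzyme GLC3_1, the phosphoglucomutase PGM2_3 and the phosphatase subunit PIG2_2 were higher by 3.96 ± 0.71, 3.68 ± 0.56 and 4.32 ± 0.65 on the log2 scale. In SpIB1, replicate 1 was the lowest library for TPS1_1, GSY2_2, GLC3_1 and PGM2_3, and all SpIB2 libraries lay above SpIB1 for each of the genes named. Values moved to 3.11 for ATH1_2, 1.56 for TPS2_2 and 3.71 for PIG2_2 without SpIB2 replicate 1.

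Chaperone genes had the highest list median. Of the 59 copies, 48 were higher and 5 lower (36 and 5 with library totals), and the median log2 fold change was 2.40 and was 1.59 with library totals. HSP26_2, a small heat shock protein that binds unfolding proteins, stood at 67.3, 88.1 and 147 CPM in SpIB1 and 6636, 3536 and 2955 CPM in SpIB2 (a log2 fold change of 5.44 ± 0.67 SE, adjusted p = 2.17e-05 by edgeR). HSP42_2, of the same family, stood at 36, 53.8 and 118 CPM in SpIB1 and 4482, 2553 and 2069.5 CPM in SpIB2 (a log2 fold change of 5.45 ± 0.66 SE, adjusted p = 1.9e-05 by edgeR). HSP30, a plasma membrane stress protein, stood at 164, 222 and 389 CPM in SpIB1 and 10398, 4675 and 2818 CPM in SpIB2 (a log2 fold change of 4.53 ± 0.58 SE, adjusted p = 2.99e-05 by edgeR). SpIB2 replicate 1 was the highest library for all 3, and no library of the strains overlapped. The Hsp70 SSA3_1, the co-chaperones SIS1_1 and MDJ1_2 of Hsp70 proteins and the exchange factor FES1_2 were higher by 3.41 ± 0.67, 4.16 ± 0.52, 3.53 ± 0.44 and 4.45 ± 0.74. The 5 lower copies were SSB1_1, SSB1_2, SSB1_3, SSB2_1 and SSC1_2 (log2 fold changes -2.82 to -0.77). Log2 fold changes were 6.04 for HSP42_2 without SpIB1 replicate 3, 3.85 for HSP30 without SpIB2 replicate 1.

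Of the 103 copies, 65 were higher and 4 lower (42 and 16 with library totals) of the stress response, and the median log2 fold change was 1.40 and was 0.56 with library totals. SPI1_1, a cell wall protein of starved cells, stood at 92.9, 155 and 197 CPM in SpIB1 and 9452, 4194 and 4482 CPM in SpIB2 (a log2 fold change of 5.35 ± 0.59 SE, adjusted p = 8.49e-06 by edgeR). SPG1_1, needed for survival in stationary phase, stood at 29.5, 47 and 55 CPM in SpIB1 and 2304, 2024 and 1563 CPM in SpIB2 (a log2 fold change of 5.48 ± 0.65 SE, adjusted p = 1.54e-05 by edgeR). HOR7_1, a small osmotic stress protein, stood at 1405, 1580.4 and 1510.3 against 8051, 12772 and 9711 CPM, and YAK1_1, a kinase that restrains growth, at 65.9, 104 and 153 against 2499, 1037 and 736 CPM. No SpIB2 library of these overlapped SpIB1. Of the 47 copies, 21 were higher and 2 lower (13 and 8 with library totals) among antioxidant enzymes, and the median log2 fold change was 0.64 and changed sign to -0.08 with library totals. The thioredoxin TRX2_1 stood at 110.4, 112 and 109 against 1111, 1535 and 1203 CPM (a log2 fold change of 3.54 ± 0.39 SE, adjusted p = 6.74e-06 by edgeR), and the peroxiredoxins AHP1_2, PRX1_2 and TSA2_1 were higher by 2.94 ± 0.37, 2.81 ± 0.36 and 2.62 ± 0.44 on the log2 scale. The 4 lower copies numbered 7 without SpIB2 replicate 1. The log2 fold change became 3.04 for YAK1_1 without SpIB2 replicate 1.

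Genes of protein breakdown were higher. Of the 74 copies, 59 were higher and 3 lower (30 and 6 with library totals) of the proteasome, and the median log2 fold change was 1.23 and was 0.40 with library totals. RPN4_1 and RPN4_2, copies of the activator of proteasome genes, stood at 173, 154 and 184 against 1141, 638 and 468 CPM and at 114, 155 and 149.7 against 1231, 681 and 518 CPM (2.14 ± 0.36 and 2.54 ± 0.37). The lid and base subunits RPN11_2, RPN13_2 and RPT6_1 were higher by 2.90 ± 0.33, 3.0 ± 0.32 and 2.84 ± 0.32 on the log2 scale, and the ubiquitin-selective ATPase CDC48_2 and the conjugating enzyme UBC4_2 by 2.40 ± 0.42 and 2.55 ± 0.32. Summed over copies, 32 of 37 proteasome symbols were higher and 0 lower (14 and 1 with library totals). Of the 80 copies, 44 were higher and 4 lower (22 and 11 with library totals) of autophagy and the vacuole, and the median log2 fold change was 0.99 and was 0.16 with library totals. ATG32_2, the receptor for mitophagy, stood at 89.2, 72.4 and 87.5 CPM in SpIB1 and 2756, 731 and 745 CPM in SpIB2 (a log2 fold change of 4.09 ± 0.51 SE, adjusted p = 2.43e-05 by edgeR). The vacuolar protease PRB1_1 stood at 1168, 1395 and 1910.3 CPM in SpIB1 and 19823, 6975 and 4791 CPM in SpIB2 (a log2 fold change of 2.82 ± 0.54 SE, adjusted p = 0.000623 by edgeR). For both, SpIB2 replicate 1 was highest and no library overlapped. The autophagy initiation subunit ATG31_2, the pexophagy receptor ATG36_2 and the carboxypeptidase inhibitor TFS1_1 were higher by 3.31 ± 0.43, 2.87 ± 0.41 and 3.36 ± 0.52 on the log2 scale. Leaving out a library gave log2 fold changes of 3.15 for ATG32_2, 1.98 for PRB1_1 and 2.23 for ATG36_2 without SpIB2 replicate 1.

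The protein synthesis machinery was lower in SpIB2, from ribosome assembly to the ribosomal proteins and RNA polymerases I and III. Ribosome biogenesis had the lowest list median: of the 171 copies, 9 were higher and 126 lower (9 and 148 with library totals), and the median log2 fold change was -1.43 and was -2.12 with library totals. SPB1, a methyltransferase of the large subunit precursor, stood at 346, 152 and 134 CPM in SpIB1 and 8.58, 15.4 and 13 CPM in SpIB2 (a log2 fold change of -4.08 ± 0.51 SE, adjusted p = 2.39e-05 by edgeR). NSR1, a nucleolar protein of pre-rRNA processing, stood at 1171, 479 and 642 CPM in SpIB1 and 205, 223 and 113 CPM in SpIB2 (a log2 fold change of -2.08 ± 0.47 SE, adjusted p = 0.00205 by edgeR). Every SpIB2 library lay below SpIB1 for both, and SpIB1 replicate 1 was the highest. Of the 9 higher copies, 3 had no read in SpIB1 (NOG2_1, NOP6_2 and RRP14_2). For large-subunit ribosomal proteins, of the 136 copies, 3 were higher and 76 lower (2 and 113 with library totals), and the median log2 fold change was -1.04 and was -1.68 with library totals. For those of the small subunit, of the 101 copies, 1 was higher and 48 lower (0 and 77 with library totals), and the median log2 fold change was -0.92 and was -1.57 with library totals. RPL4A_2 stood at 392, 273 and 328 against 36.7, 66.7 and 60.5 CPM and RPS3_2 at 484, 372 and 326 against 30.6, 114 and 129 CPM, with SpIB2 replicate 1 the lowest library for both. The copies RPL17B_3 and RPL35A_3 went the other way (4.50 ± 0.43 and 8.55 ± 0.76), while the sum over the copies of RPL35A was lower (-1.16 ± 0.41). The 5 lower copies of the ribosomal stalk, of 10, were RPP0_1 (-1.46 ± 0.35), RPP1A_1, RPP1B_1, RPP2B_1 and RPP2A_1, and 2 passed without SpIB1 replicate 1 and 3 without SpIB1 replicate 2 or without SpIB2 replicate 2. The 48 lower copies of the list small-subunit ribosomal proteins numbered 29 without SpIB1 replicate 1. Calls ended of RPL35A summed (-1.20 to -0.80) without any 1 of SpIB1 replicate 1, SpIB1 replicate 2, SpIB1 replicate 3, SpIB2 replicate 1 or SpIB2 replicate 2. Values moved to 9.34 for RPL35A_3 without SpIB1 replicate 3. In a fit of the day 5 libraries alone, the call of RPL35A summed ended.

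The subunits of RNA polymerases I and III, which transcribe ribosomal and transfer RNA, were mostly lower: of the 31 copies, 2 were higher and 19 lower (1 and 24 with library totals). For polymerase II and the shared subunits, of the 25 copies, 4 were higher and 6 lower (0 and 15 with library totals), and the share of lower copies was below the 26.5% of all copies. The polymerase I subunit copy RPA49_2 stood at 56.7, 28 and 25.5 against 2.75, 7.36 and 1.1 CPM (a log2 fold change of -3.26 ± 0.53 SE, adjusted p = 0.000177 by edgeR), and the polymerase III subunit copy RPC53_1 was lower (-2.29 ± 0.31). Among translation factors, of the 49 copies, 7 were higher and 27 lower (5 and 37 with library totals), and the median log2 fold change was -0.91 and was -1.61 with library totals. The elongation factor YEF3_1 stood at 3094, 1772 and 2119.8 CPM in SpIB1 and 359.5, 515 and 336 CPM in SpIB2 (a log2 fold change of -2.53 ± 0.44 SE, adjusted p = 0.000305 by edgeR), and the initiation factor PRT1_1 at 148, 115 and 112 CPM in SpIB1 and 13.7, 21 and 15.4 CPM in SpIB2 (a log2 fold change of -2.89 ± 0.30 SE, adjusted p = 4.18e-06 by edgeR). The strains did not overlap for either. TEF1_1, which brings transfer RNA to the ribosome, stood at 3016, 2888 and 3082 against 3087, 2603 and 2949 CPM and overlapped (a log2 fold change of -0.06 ± 0.32 SE, adjusted p = 0.893 by edgeR), and CAM1_2, a subunit of its exchange factor, was higher (2.83 ± 0.41). Among ribosomal proteins of mitochondria, of the 124 copies, 57 were higher and 10 lower (20 and 26 with library totals), and the median log2 fold change was 0.61 and changed sign to -0.10 with library totals, with MRPL51_2 at 55.4, 62.2 and 73.2 against 334, 284 and 263 CPM and 6 copies without a read in SpIB1 among the higher ones. In mitochondrial import, of the 35 copies, 12 were higher and 6 lower (5 and 11 with library totals), and the median log2 fold change was 0.42 and changed sign to -0.38 with library totals, and TIM54_2 and TIM9_2, of the inner membrane translocases, were higher (1.82 ± 0.23 and 1.88 ± 0.45). With library totals TEF1_1 was called lower. The 6 lower copies of polymerase II and shared subunits numbered 3 without SpIB1 replicate 1. Log2 fold changes were -4.34 for RPA49_2 without SpIB2 replicate 2, 1.23 for TIM9_2 without SpIB2 replicate 3.

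Of the 113 copies, 20 were higher and 35 lower (5 and 65 with library totals) of the cell cycle, the median log2 fold change was -0.35 and was -1.14 with library totals, and the summed level of the list was 5449 to 6672 CPM in SpIB1 and 6707 to 8985 CPM in SpIB2. Only the histone sum rose without overlap, from 1877 to 2831 CPM in SpIB1 to 4304 to 4787 CPM in SpIB2. The sum of cyclins and mitotic regulators was 1557 to 1756 against 979 to 1130 CPM. That of replication genes was 1903 to 2284 against 1314 to 3068 CPM and overlapped. The G1 cyclin copy CLN3_1 stood at 173, 130.4 and 152 CPM in SpIB1 and 17.9, 18.6 and 15.2 CPM in SpIB2 (a log2 fold change of -3.14 ± 0.33 SE, adjusted p = 4.85e-06 by edgeR), and CLN3_2 was lower as well (-1.58 ± 0.33). The forkhead factors FKH1_1 and FKH2_2 of mitotic transcription were lower at log2 fold changes of -2.59 ± 0.34 and -3.0 ± 0.31, and the replication genes CDC45_1, POL1_2 and MCM7_2 of -2.57 ± 0.42, -2.23 ± 0.26 and -1.92 ± 0.28. Histone copies differed: of the 20 copies, 6 were higher and 2 lower (3 and 4 with library totals), with HHF1_3 of histone H4, HHT1_3 of H3 and HTA1_1 of H2A at 2.81 ± 0.37, 2.28 ± 0.33 and 2.13 ± 0.40. Of the 56 copies, 16 were higher and 9 lower (9 and 15 with library totals) in sporulation and mating, and the median log2 fold change was 0.07 and changed sign to -0.70 with library totals, and the summed level of the list was 694 to 891 CPM in SpIB1 and 1229.7 to 5326 CPM in SpIB2. By role it was 523 to 703 against 1007 to 5088 CPM for sporulation and 171 to 203 against 222 to 238 CPM for mating. The meiotic kinase copy IME2_2 stood at 8.3, 8.93 and 13.4 CPM in SpIB1 and 385, 214 and 156 CPM in SpIB2 (a log2 fold change of 4.62 ± 0.40 SE, adjusted p = 9.19e-07 by edgeR), and RIM4_2, a meiotic RNA-binding protein, at 73.8, 79.8 and 148 CPM in SpIB1 and 3415, 371 and 407 CPM in SpIB2 (a log2 fold change of 3.80 ± 0.74 SE, adjusted p = 0.0007 by edgeR). Both were higher in every SpIB2 library, and replicate 1 was the highest for RIM4_2. The 20 higher copies of the list cell cycle numbered 13 without SpIB1 replicate 1. The 9 lower copies of the list sporulation and mating numbered 5 without SpIB2 replicate 3. The median of sporulation and mating was -0.058 without SpIB2 replicate 2. The log2 fold change became 1.95 for RIM4_2 without SpIB2 replicate 1.

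Genes for taking up and using nitrogen were lower in SpIB2. Of the 96 copies, 15 were higher and 48 lower (4 and 70 with library totals), and the median log2 fold change was -1.07 and was -1.83 with library totals. PUT4_1, the proline permease, stood at 684, 812 and 1112 CPM in SpIB1 and 29.9, 17.5 and 12.3 CPM in SpIB2 (a log2 fold change of -5.46 ± 0.90 SE, adjusted p = 0.000207 by edgeR). DUR3_1, which imports urea and polyamines, stood at 2142, 935 and 1206 CPM in SpIB1 and 89.6, 46.1 and 39.2 CPM in SpIB2 (a log2 fold change of -4.62 ± 0.65 SE, adjusted p = 6.18e-05 by edgeR). GAP1_1, the general amino acid permease, stood at 736, 688 and 883 CPM in SpIB1 and 35, 66.7 and 39.4 CPM in SpIB2 (a log2 fold change of -4.03 ± 0.39 SE, adjusted p = 2.32e-06 by edgeR). All 3 were lower in every SpIB2 library. The dicarboxylic amino acid permease DIP5 stood at 1118, 1597 and 1203 against 137, 310.4 and 289 CPM, AGP1 at 625, 120.0 and 189 against 20.6, 63 and 30.8 CPM and the ammonium permease MEP2_2 at 877, 716 and 820.1 against 407, 195 and 213 CPM. Allantoin and urea genes had the lowest median of these roles (-1.61), with the allantoin permease DAL4_1 and the malate synthase DAL7_1 lower (-3.13 ± 0.41 and -2.95 ± 0.59). The GATA activator GAT1_1, the arginase CAR1_2 and the ammonia-assimilating enzymes GLN1_1 and GDH1_1 were lower too (-3.01 ± 0.48, -4.04 ± 0.62, -1.65 ± 0.39 and -2.30 ± 0.51). UGA2_2, which finishes GABA breakdown, was higher at 20.2, 27.7 and 26.7 against 460.1, 537 and 251 CPM (a log2 fold change of 4.06 ± 0.38 SE, adjusted p = 1.68e-06 by edgeR), as was the glutamate dehydrogenase GDH3_2 (2.06 ± 0.27). The 15 higher copies numbered 8 without SpIB1 replicate 1 and 8 without SpIB1 replicate 2. Leaving out a library gave log2 fold changes of -2.05 for AGP1 without SpIB1 replicate 1, -3.69 for DAL7_1 and -2.97 for GDH1_1 without SpIB2 replicate 2.

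Of the 122 copies, 16 were higher and 64 lower (5 and 86 with library totals) in amino acid synthesis, and the median log2 fold change was -0.71 and was -1.41 with library totals. In branched chain synthesis 14 of 20 copies were lower and 0 higher (20 and 0 with library totals). LEU2, of leucine synthesis, stood at 573, 537 and 702 CPM in SpIB1 and 41.2, 158 and 113 CPM in SpIB2 (a log2 fold change of -2.54 ± 0.43 SE, adjusted p = 0.000265 by edgeR), and ILV3_2, which leucine, isoleucine and valine share, at 687, 554 and 754 CPM in SpIB1 and 69, 197 and 149 CPM in SpIB2 (a log2 fold change of -2.26 ± 0.38 SE, adjusted p = 0.000233 by edgeR). The SpIB2 libraries lay below SpIB1 for both, with replicate 1 the lowest. HIS4 of histidine, ARG4_1 of arginine, ARO4_1 of aromatic amino acid and THR4 of threonine synthesis were lower at log2 fold changes of -2.10 ± 0.37, -1.48 ± 0.26, -1.70 ± 0.31 and -1.73 ± 0.28. The homocitrate synthases of lysine synthesis went opposite ways, LYS20_2 at 13, 10.9 and 16 against 240.0, 63.4 and 80.4 CPM and LYS21_1 at 61.9, 63.1 and 76.1 against 15.8, 23.4 and 22.9 CPM, and SER33_2 of serine synthesis was higher (2.59 ± 0.38). Of the copies of the activator GCN4, GCN4_1 stood at 565, 537 and 579.7 against 469.7, 822 and 893 CPM without passing the test (a log2 fold change of 0.38 ± 0.31 SE, adjusted p = 0.323 by edgeR), and GCN4_2 was lower (-0.94 ± 0.33). In sulfate assimilation and methionine, of the 57 copies, 16 were higher and 18 lower (7 and 28 with library totals), and the median log2 fold change was -0.08 and was -0.78 with library totals. MET14_2, of sulfate activation, stood at 112, 62.4 and 69.6 against 583, 521 and 609.8 CPM (a log2 fold change of 2.81 ± 0.40 SE, adjusted p = 6.81e-05 by edgeR), and the methionine permease MUP3_1 was higher (3.02 ± 0.28). In purine synthesis, of the 35 copies, 8 were higher and 12 lower (3 and 22 with library totals), and the median log2 fold change was -0.36 and was -1.13 with library totals. The adenine deaminase AAH1_1, the GMP synthase GUA1_1 and the IMP dehydrogenase IMD4_1 were lower at log2 fold changes of -2.88 ± 0.70, -2.88 ± 0.59 and -2.36 ± 0.40. The median of sulfate assimilation and methionine was 0.096 without SpIB2 replicate 1. Calls ended of GCN4_2 (-0.91) without SpIB1 replicate 3. Values moved to 2.42 for LYS20_2 without SpIB2 replicate 1, -3.56 for AAH1_1 without SpIB2 replicate 2. In a fit of the day 5 libraries alone, the call of GCN4_2 ended.

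Iron uptake genes showed some of the largest differences. Of the 50 copies, 6 were higher and 24 lower (2 and 38 with library totals), and the median log2 fold change was -0.90 and was -1.63 with library totals. FRE4_1, a ferric reductase, stood at 654, 354 and 327 CPM in SpIB1 and 15.8, 13.2 and 8.15 CPM in SpIB2 (a log2 fold change of -5.18 ± 0.54 SE, adjusted p = 4.85e-06 by edgeR). FTR1_1, the iron permease, stood at 1351, 667 and 690.5 CPM in SpIB1 and 33, 27.1 and 22.2 CPM in SpIB2 (a log2 fold change of -5.04 ± 0.66 SE, adjusted p = 3.41e-05 by edgeR). FET3_2, the oxidase that works with it, stood at 765, 481 and 481 CPM in SpIB1 and 38.1, 18.8 and 17 CPM in SpIB2 (a log2 fold change of -4.55 ± 0.53 SE, adjusted p = 1.3e-05 by edgeR). All 3 were lower in every SpIB2 library, with SpIB1 replicate 1 the highest. The low-affinity transporter FET4 and the siderophore transporters SIT1_2 and ARN1_1 were lower at log2 fold changes of -2.04 ± 0.36, -3.50 ± 0.26 and -2.66 ± 0.26, and TIS11_1, which destabilises messenger RNA of iron-using proteins, of -4.46 ± 0.40. The iron-sulfur scaffold ISU1_2 was higher (2.06 ± 0.39). In zinc transport, of the 22 copies, 9 were higher and 4 lower (7 and 8 with library totals), and the median log2 fold change was 0.39 and changed sign to -0.39 with library totals. ZRT1, the high-affinity zinc transporter, stood at 641, 244 and 271 CPM in SpIB1 and 72.5, 45.2 and 33.7 CPM in SpIB2 (a log2 fold change of -2.94 ± 0.45 SE, adjusted p = 0.000118 by edgeR), while the zinc-responsive membrane protein IZH4_2 was higher at 229, 94 and 122 against 3155, 3135 and 1697 CPM (a log2 fold change of 4.17 ± 0.49 SE, adjusted p = 1.48e-05 by edgeR). The 6 higher copies of the list iron numbered 3 with the day 5 libraries alone, 2 without SpIB1 replicate 1, 2 without SpIB1 replicate 2, 3 without SpIB1 replicate 3 and 3 without SpIB2 replicate 3. The 4 lower copies of the list zinc numbered 7 without SpIB2 replicate 1.

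In phosphate genes the direction varied: of the 33 copies, 11 were higher and 8 lower (7 and 16 with library totals), and the median log2 fold change was 0.08 and changed sign to -0.70 with library totals. PHM8_1, a phosphatase, stood at 90.7, 144 and 88.5 CPM in SpIB1 and 512, 1805 and 747 CPM in SpIB2 (a log2 fold change of 3.25 ± 0.48 SE, adjusted p = 8.71e-05 by edgeR), and the vacuolar phosphatase PHO8_2 and the activator PHO4_2 were higher (2.92 ± 0.56 and 2.24 ± 0.40). GIT1_1, the transporter of glycerophosphoinositol, which lies outside this list, stood at 42, 97.8 and 91 CPM in SpIB1 and 1.03, 0.866 and 1.1 CPM in SpIB2 (a log2 fold change of -6.25 ± 0.41 SE, adjusted p = 1.86e-07 by edgeR), the copy with the lowest log2 fold change of those named by size. Among thiamine genes, of the 38 copies, 9 were higher and 11 lower (1 and 21 with library totals), and the median log2 fold change was -0.37 and was -1.09 with library totals. The thiamine transporter THI7_1 stood at 402, 273 and 245 CPM in SpIB1 and 50.1, 50.7 and 35 CPM in SpIB2 (a log2 fold change of -2.76 ± 0.35 SE, adjusted p = 2.62e-05 by edgeR), and THI5 and THI11_1, of thiamine precursor synthesis, were lower at log2 fold changes of -3.02 ± 0.48 and -2.80 ± 0.44. SNO1_2, of vitamin B6 synthesis, was higher (2.41 ± 0.27). The 9 higher copies of the list thiamine numbered 5 without SpIB1 replicate 2. The 11 lower copies of the list thiamine numbered 6 without SpIB1 replicate 1. The median of phosphate was -0.065 without SpIB1 replicate 1 and -0.075 without SpIB2 replicate 1. Log2 fold changes were 2.02 for PHO8_2 and 1.64 for PHO4_2 without SpIB2 replicate 1, 2.55 for PHM8_1 without SpIB2 replicate 2.

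Of the 63 copies, 11 were higher and 15 lower (6 and 33 with library totals) of sterol metabolism, and the median log2 fold change was -0.25 and was -1.06 with library totals. In synthesis, ERG1_1, the squalene epoxidase, stood at 3378, 1771 and 1954 CPM in SpIB1 and 721, 455 and 269.9 CPM in SpIB2 (a log2 fold change of -2.30 ± 0.55 SE, adjusted p = 0.00297 by edgeR), and ERG13_1, an early step, at 1998, 1079 and 1521 CPM in SpIB1 and 469, 382 and 242 CPM in SpIB2 (a log2 fold change of -2.07 ± 0.54 SE, adjusted p = 0.00526 by edgeR). Both were lower in every SpIB2 library. ERG6_1 and ERG2_1 were also lower (-1.97 ± 0.44 and -1.97 ± 0.43), and ERG11_1 stood at 4127, 2007 and 2252 against 4939, 1406 and 707 CPM and overlapped (a log2 fold change of -0.25 ± 0.63 SE, adjusted p = 0.754 by edgeR). Of the 16 copies, 8 were higher and 1 lower (4 and 4 with library totals) among genes of sterol uptake and esters; the ester-forming ARE2_1 had 0 to 0.306 CPM in SpIB1 and 1920.2, 461 and 430.2 CPM in SpIB2. In fatty acid and lipid genes, of the 56 copies, 25 were higher and 10 lower (11 and 16 with library totals), and the median log2 fold change was 0.75 and changed sign to -0.14 with library totals. The desaturase copy OLE1_1 stood at 5361, 5086 and 4464 CPM in SpIB1 and 30990.3, 12956 and 10327 CPM in SpIB2 (a log2 fold change of 1.86 ± 0.44 SE, adjusted p = 0.00267 by edgeR), and INO1_2, the first step of inositol synthesis, at 415, 271 and 704 CPM in SpIB1 and 7915, 3356 and 2619 CPM in SpIB2 (a log2 fold change of 3.32 ± 0.56 SE, adjusted p = 0.000251 by edgeR). All SpIB2 libraries lay above SpIB1 for both. The phospholipid methyltransferase CHO2_2 and the fatty acid activating enzyme FAA4_3 were higher (2.45 ± 0.39 and 2.27 ± 0.48), and the elongase ELO2 was lower (-2.60 ± 0.34). With library totals ERG11_1 was called lower. The 15 lower copies of the list sterol synthesis numbered 9 without SpIB1 replicate 1. The 8 higher copies of sterol uptake and esters numbered 5 without SpIB1 replicate 2. The median of sterol synthesis was 0.088 without SpIB1 replicate 1, 0.0064 without SpIB2 replicate 2 and 0.15 without SpIB2 replicate 3. The test was passed by ERG11_1 (-1.41) without SpIB2 replicate 1. The log2 fold change became 1.22 for OLE1_1 and 2.68 for INO1_2 without SpIB2 replicate 1.

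Aroma genes shape the esters and higher alcohols of beer, and of the 28 copies, 8 were higher and 6 lower (4 and 12 with library totals), and the median log2 fold change was 0.41 and changed sign to -0.37 with library totals. Of the alcohol acetyltransferases, ATF1_1 stood at 87.1, 50.8 and 63.4 against 157, 118 and 94 CPM (a log2 fold change of 0.87 ± 0.29 SE, adjusted p = 0.0193 by edgeR) and ATF2_2 at 75.3, 43.8 and 55.1 against 23.7, 32.9 and 27.3 CPM (a log2 fold change of -1.05 ± 0.28 SE, adjusted p = 0.00598 by edgeR). The ethyl ester synthase EEB1_1 overlapped between the strains at 596, 655 and 515 against 501, 601 and 451 CPM (a log2 fold change of -0.19 ± 0.30 SE, adjusted p = 0.615 by edgeR). In the Ehrlich pathway from amino acids to higher alcohols, the decarboxylase ARO10_2 and the dehydrogenase SFA1_1 were higher, at 86.7, 31.6 and 59.1 against 329, 195 and 166 CPM and 194, 299.9 and 340.4 against 1286, 1002 and 827 CPM (1.96 ± 0.50 and 1.90 ± 0.42). Flocculins, which make cells clump, were lower: FLO5_1 stood at 507, 463 and 872 CPM in SpIB1 and 23, 22.9 and 13.6 CPM in SpIB2 (a log2 fold change of -4.95 ± 0.40 SE, adjusted p = 6.13e-07 by edgeR), and FLO1, FLO9 and the mating adhesin FIG2 were lower at log2 fold changes of -2.55 ± 0.35, -1.21 ± 0.28 and -1.72 ± 0.30, 4 of the 7 adhesin copies tested. Of the 57 copies, 24 were higher and 13 lower (14 and 20 with library totals) of adhesion and the cell wall, and the median log2 fold change was 0.84 and changed sign to -0.05 with library totals. GSC2_1, a glucan synthase of starved or sporulating cells, stood at 437, 504 and 578 CPM in SpIB1 and 5317, 1531 and 878 CPM in SpIB2 (a log2 fold change of 2.35 ± 0.56 SE, adjusted p = 0.00302 by edgeR), and CWP2, a major mannoprotein, at 0.867, 0.327 and 0.306 CPM in SpIB1 and 205, 426 and 532 CPM in SpIB2 (a log2 fold change of 9.58 ± 0.63 SE, adjusted p = 1.86e-07 by edgeR). Of the 39 copies, 13 were higher and 10 lower (4 and 16 with library totals) of drug and metal export, and the median log2 fold change was 0.39 and changed sign to -0.46 with library totals, with the transporter PDR10_2 higher (3.32 ± 0.61) and the polyamine exporter TPO4_1 lower (-2.39 ± 0.42). Among subtelomeric families, of the 12 copies, 8 were higher and 1 lower (6 and 2 with library totals), and the median log2 fold change was 1.44 and was 0.68 with library totals, with the aryl alcohol dehydrogenase AAD14_1 at 126, 97.4 and 117 against 791, 351 and 409 CPM. The call of ATF1_1 ended with library totals, and EEB1_1 was called lower. The 8 higher copies of the list aroma numbered 5 without SpIB1 replicate 2 and 4 without SpIB1 replicate 3. The 13 higher copies of the list multidrug and metal export numbered 8 with the day 5 libraries alone, 8 without SpIB1 replicate 2 and 6 without SpIB2 replicate 1. The 10 lower copies of the list multidrug and metal export numbered 6 without SpIB1 replicate 1, 4 without SpIB2 replicate 2 and 4 without SpIB2 replicate 3. The median of multidrug and metal export was -0.26 without SpIB2 replicate 1. Calls ended of ATF1_1 (0.66 to 0.79) without any 1 of SpIB1 replicate 2 or SpIB1 replicate 3. Values moved to 1.25 for GSC2_1 and 2.62 for PDR10_2 without SpIB2 replicate 1. In a fit of the day 5 libraries alone, the call of ATF1_1 ended.

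The 12 copies with the highest and the 12 with the lowest log2 fold change were taken among called copies with a symbol, at least 10 CPM in the higher strain and a read in every library of the lower strain. On the higher side most had under 2 CPM in every SpIB1 library, as did the following 3. The fatty acid synthase copy FAS1_2 stood at 1.36, 0.109 and 0.408 CPM in SpIB1 and 2529, 775 and 466 CPM in SpIB2 (10.97 ± 0.99), yet the sum over its copies did not pass the test (0.81 ± 0.59). VMA1_2, a vacuolar ATPase subunit, stood at 1.11, 1.31 and 1.12 CPM in SpIB1 and 493, 444 and 344 CPM in SpIB2 (8.47 ± 0.41), and RRN3_2, an initiation factor of RNA polymerase I, at 0.248, 0.109 and 0.102 CPM in SpIB1 and 158, 157 and 119.8 CPM in SpIB2 (9.75 ± 0.38). All SpIB2 libraries lay above SpIB1 for these, as the choice required. BOP2_2 stood at 14.9, 17.9 and 32.4 CPM in SpIB1 and 4252, 1631 and 1124 CPM in SpIB2 (a log2 fold change of 6.75 ± 0.67 SE, adjusted p = 3.02e-06 by edgeR) and CIS1 at 13.5, 13.4 and 11.8 CPM in SpIB1 and 878, 716 and 628 CPM in SpIB2 (a log2 fold change of 5.84 ± 0.39 SE, adjusted p = 1.86e-07 by edgeR). SPO11_3, the meiotic double-strand break enzyme, stood at 1.36, 2.4 and 1.33 CPM in SpIB1 and 144, 117 and 43.8 CPM in SpIB2 (a log2 fold change of 5.88 ± 0.49 SE, adjusted p = 7.93e-07 by edgeR). The others were CWP2, RPL35A_3, DSF1_3, the aspartate aminotransferase AAT2_2, the transporter HOL1_1 and DEF1_2, which helps to degrade stalled RNA polymerase (6.41 ± 0.74, 8.16 ± 0.58, 8.07 ± 0.44 and 8.00 ± 0.52 for those not given above). The lower side held 6 copies of iron genes (FRE4_1, FTR1_1, FTR1_2, FET3_1, FET3_2 and TIS11_1), the permeases GIT1_1, PUT4_1 and DUR3_1, FLO5_1 and the ribosome assembly genes SPB1 and RRP12_1, with RRP12_1 at 34.1, 13.2 and 13 against 0.687, 1.95 and 0.44 CPM. Log2 fold changes were 9.96 to 12.07 for FAS1_2 without any 1 of SpIB1 replicate 1 or SpIB2 replicate 1, 8.66 for HOL1_1 without SpIB1 replicate 2, 7.15 for DSF1_3 without SpIB1 replicate 3, 5.98 for BOP2_2 and 7.31 for DEF1_2 without SpIB2 replicate 1, -5.16 for RRP12_1 without SpIB2 replicate 2.

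**Figure D3:**
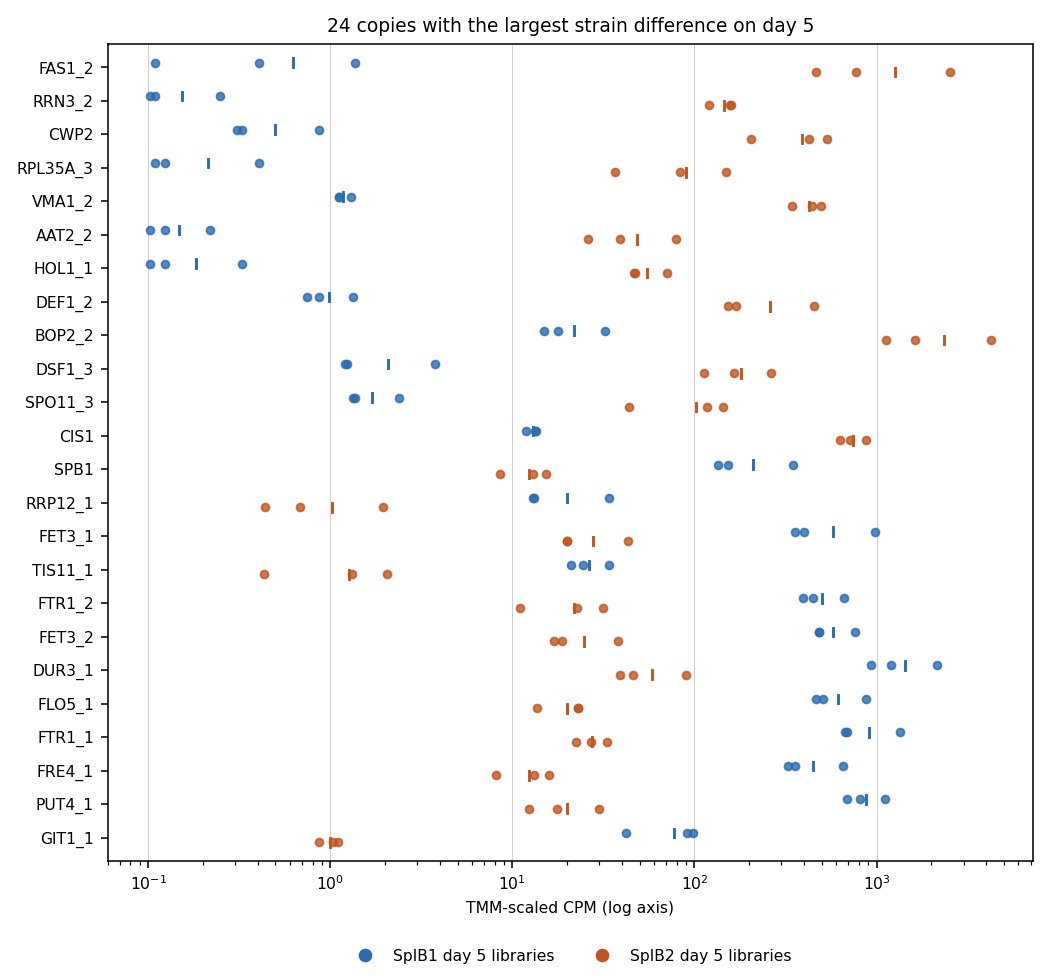
TMM-scaled CPM (log axis) of the 24 copies with the largest strain difference on day 5, 1 dot for each library and a vertical bar for the mean of the strain's 3 libraries. The upper 12 copies are higher in SpIB2, most of them near or below 2 CPM in SpIB1, and the lower 12 are higher in SpIB1.

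Whether these 24 differences were larger or smaller on day 5 than on day 2 was tested as the difference of the strain differences. It passed the test for 8 of the 24, where 26.4% of all copies did. The 24 were chosen by their day 5 difference, which enters the tested difference, so the choice favours a larger difference on day 5 and nothing is read from the count. For SPO11_3 and BOP2_2 the strains did not differ detectably on day 2 (log2 fold change 0.79 ± 0.48 and -0.56 ± 0.53), and the day 5 difference was larger (difference 5.10 ± 0.68 SE, edgeR adjusted p = 0.000582 for SPO11_3; difference 7.31 ± 0.82 SE, edgeR adjusted p = 0.000224 for BOP2_2). CIS1 and DSF1_3 were already higher in SpIB2 on day 2 (2.32 ± 0.35 and 3.47 ± 0.73) and the difference was larger on day 5 (difference 3.52 ± 0.48 SE, edgeR adjusted p = 0.000634 for CIS1; difference 2.94 ± 1.02 SE, edgeR adjusted p = 0.0466 for DSF1_3). For the permeases PUT4_1 and DUR3_1 no difference was detected on day 2 (-0.87 ± 0.75 and -0.41 ± 0.56), and they were lower in SpIB2 on day 5 (difference -4.58 ± 1.11 SE, edgeR adjusted p = 0.0115 for PUT4_1; difference -4.21 ± 0.83 SE, edgeR adjusted p = 0.00448 for DUR3_1). GIT1_1 and RRP12_1 were lower on both days, and more so on day 5 (difference -2.86 ± 0.67 SE, edgeR adjusted p = 0.00958 for GIT1_1; difference -2.42 ± 0.80 SE, edgeR adjusted p = 0.0391 for RRP12_1). For the other 16, among them FLO5_1 (-5.25 ± 0.41 on day 2) and the iron genes FTR1_2, FET3_1 and FET3_2 (-6.04 ± 0.60, -5.30 ± 0.57 and -5.10 ± 0.54), a change between the days was not detected. The calls ended of DSF1_3 without any 1 of SpIB1 replicate 1 or 2 or SpIB2 replicate 1 or 2, and of RRP12_1 without any 1 of SpIB1 replicate 1 or SpIB2 replicate 1 or 3, which left 6 of the 24 without SpIB1 replicate 1 or without SpIB2 replicate 1. With library totals 9 passed, DSF1_3 not among them and CWP2 and FRE4_1 added, and CWP2 passed without SpIB2 replicate 3 too. The differences became 3.69 for DSF1_3 without SpIB1 replicate 3, 6.51 for BOP2_2 without SpIB2 replicate 1 and -3.38 for RRP12_1 without SpIB2 replicate 2.

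**Figure D4:**
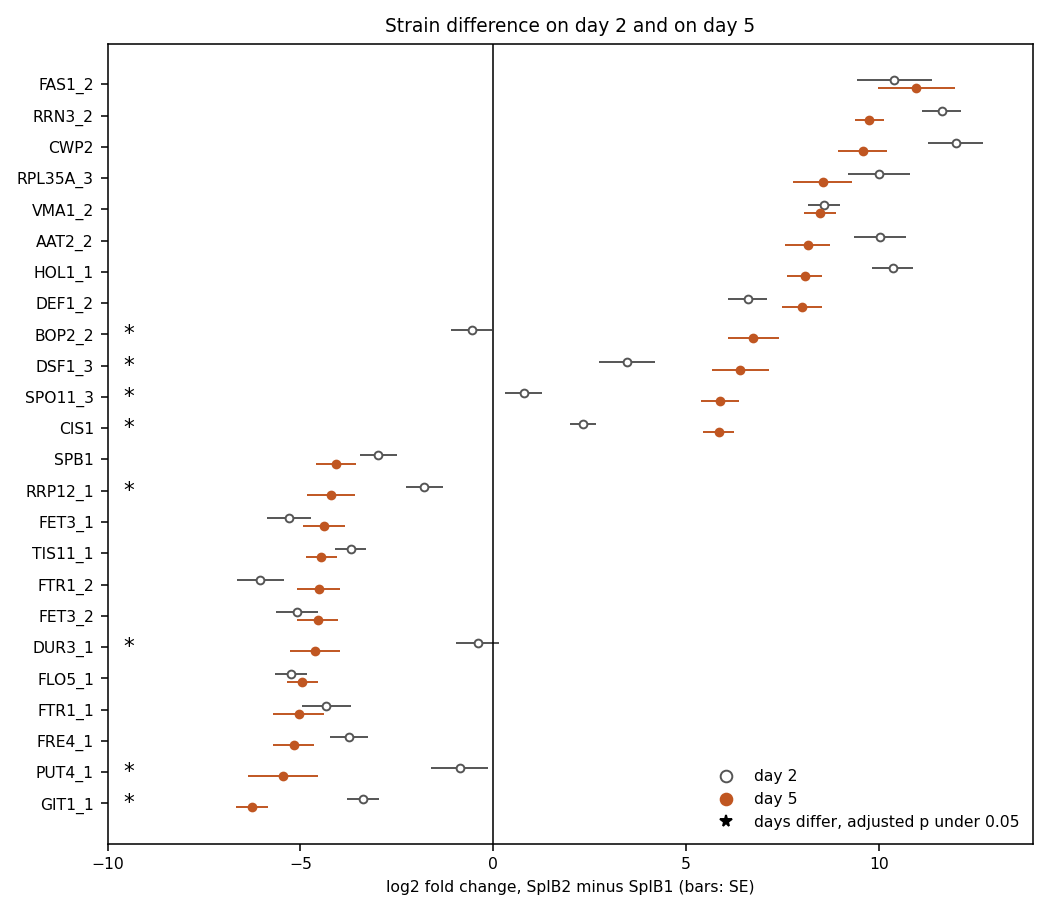
Log2 fold change between the strains, SpIB2 minus SpIB1, on day 2 (open circles) and day 5 (filled circles) for the 24 copies with the largest day 5 difference; bars are standard errors. Asterisks at the left edge mark the 8 copies whose strain difference changed between the days.

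Some copies had reads in SpIB2 and none in SpIB1. There were 190 tested copies without a read in any SpIB1 library of day 5, 189 of them called higher under both scalings, and 174 had none in SpIB1 on day 2 either. The reverse held for 1 copy, GRS66_004609, which is known by its locus tag only. Choosing copies without SpIB1 reads all but fixed the direction of the 189 calls under either scaling, so nothing is read from that count. Of the 190, 159 carry a symbol, and 128 of these end in the number 2 and 23 in the number 1. The same counts over all tested copies are not given here, so no leaning to a copy number is read from these. A fold change against no reads is a lower bound, set here against 3 reads over the SpIB1 group (0.111 CPM). HAP4_2 was at least 37500.2-fold higher, and at least 15715-fold without SpIB2 replicate 1. APE2_2, an aminopeptidase, and APE1_2, a vacuolar aminopeptidase, stood at 1662, 998 and 585 CPM and at 822, 542 and 575 CPM in SpIB2 (at least 9754-fold and 5830.2-fold higher). PIR3_2, a cell wall protein, stood at 1459, 931 and 825 CPM, and RCN1_2, a calcineurin regulator, at 1242, 793 and 838 CPM (at least 9666-fold and 8636-fold). The other copies of the 8 with the highest mean were SDH1_2 of succinate dehydrogenase, at 1788, 404 and 379 CPM, MCR1_2, a mitochondrial cytochrome b5 reductase, at 1150.0, 486 and 448 CPM, and RTN2_2, an endoplasmic reticulum shaping protein, at 930.2, 386 and 312 CPM. SpIB2 replicate 1 was the highest library for each of these 8 on the TMM scale, where its factor was 0.51 against 0.87 and 0.89. With library totals this order did not hold for all 8. The copy with the highest mean among the 190, chosen after its values were seen, has a locus tag only, GRS66_004568, at 4853, 8249 and 8108 CPM in SpIB2.

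A symbol with 2 tested copies allows a test of whether both differ alike between the strains. Among 3910 such symbols, both copies were higher in 545 and both lower in 445. Opposite calls, 1 copy higher and the other lower, were made for 318 (8.13%), and 160 of them held under both scalings. In 256 of the 318 the copy numbered 2 was the higher one. Unequal change of the copies was called for 1802 of the 3910 (46.1%; 46.3% of the 4147 symbols with 2 or more copies, or 1919, and 1618 of these with library totals). In simulated counts this test made more false calls than its threshold allows; at an adjusted p under 0.01 it called 1345 of the 4147. Among the 1001 called symbols with at least 50 CPM in both strains, the share of reads from the copy numbered 1 shifted by at least 20 percentage points in 705, down in SpIB2 in 545 and up in 160. The direction over all symbols with 2 tested copies is not given here. No leaning to a copy number is therefore read from the 318 or the 705. The 12 with the largest shift went from near 100% or 0% in SpIB1 to a mixture in SpIB2. In all of the 12 but SSK2 and VMA5, 1 copy is among those without a read in SpIB1 described above. For these the SpIB1 share of 100% or 0% follows from the missing reads, and the shift is not a separate result. APE1 went from 100% ± 0 to 24.8% ± 4.88 (SD, n = 3) of copy 1, and its sum over copies did not differ detectably (0.45 ± 0.40). SSK2, a kinase of the osmotic stress pathway, went from 0.162% ± 0.188 to 77.1% ± 2.05, again with a sum that did not pass the test (-0.33 ± 0.26). VMA5, a vacuolar ATPase subunit, went from 99.9% ± 0.0553 to 24.5% ± 5.8, and its sum was higher in SpIB2 (0.89 ± 0.25). The mean share of copy 1 fell from 100% in SpIB1 to 23.8% for APE2, 31.5% for AVT3, 17.5% for CAB3, 26.9% for IZH3, 23.8% for MBR1, 30.9% for NOP6 and 30.2% for UBA1. For BRE5 and MRPS12 it rose from 0% to 73.3% and 68.4%. Of the 12 sums, those of APE2, AVT3, CAB3, MBR1, MRPS12 and VMA5 were higher in SpIB2, and those of BRE5, IZH3, NOP6 and UBA1, like APE1 and SSK2, did not pass the test. Copies of a symbol can share reads, so a share depends on how the authors' counting split them. Under library totals the call of VMA5 summed ended, and SSK2 summed was called lower. The test was passed by SSK2 summed (-0.65) without SpIB2 replicate 1.

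**Figure D5:**
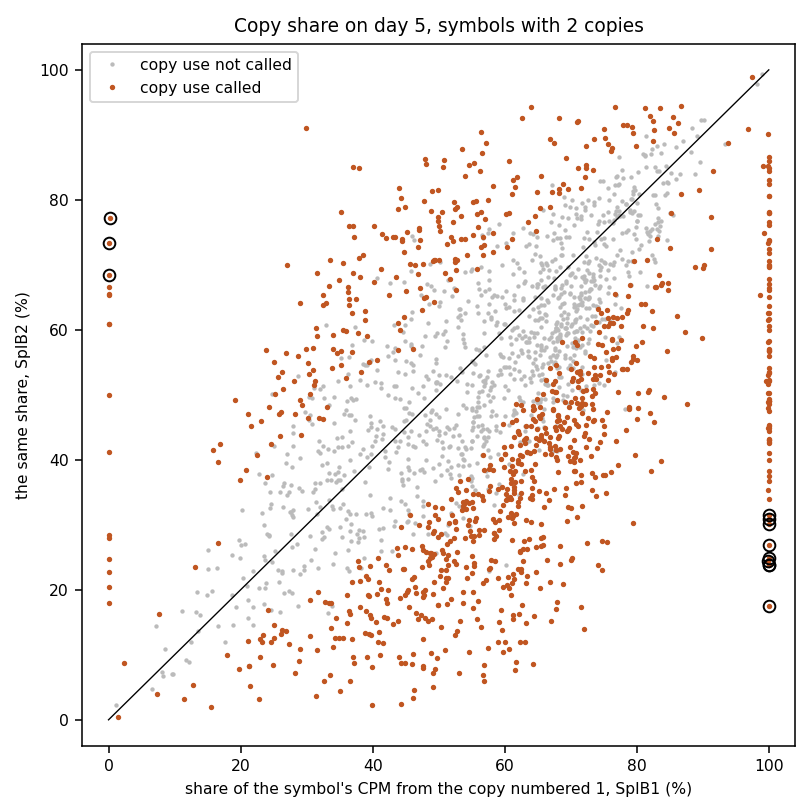
Share of a symbol's CPM that came from the copy numbered 1, mean of 3 libraries in SpIB1 (x axis) and SpIB2 (y axis), in percent, for symbols with 2 tested copies and at least 50 CPM in both strains; the line marks equal shares, orange dots are symbols called for unequal change and black rings the 12 with the largest shift. Most called symbols lie below the line, and a column of symbols stands at 100% in SpIB1.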

How the data were processed

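RNA was extracted with hot phenol and sequenced as polyA libraries at a commercial provider, per the labels' protocols. The deposited files hold read counts per gene copy, made by the authors. The submitters' processing notes list STAR 2.7.3a, HTSeq 0.11.1, Trimmomatic 0.38 and edgeR 3.34.0, with no role or order; the genome build is not given in the sources used here. Of 11312 copies, 35 had an unreadable cell and were dropped, and filterByExpr left 10659. Counts were fitted in R 4.3.3 with edgeR 4.0.16 (limma 3.58.1) by the quasi-likelihood test with TMM scaling over all 12 libraries, so both days share 1 estimate of spread, with Benjamini-Hochberg adjustment at 0.05. The same fit was made on counts summed per symbol, and copy use was tested with diffSpliceDGE. The steps were tested on simulated data.

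Named copies were the 24 of the largest difference, up to 4 called copies of largest difference and the most abundant one per role of each list, all maltose copies, the 8 most abundant copies unread in SpIB1 and the 12 symbols of largest share shift. Copies named to spell out a count of 5 or fewer, or without a symbol, were chosen after their values were seen. The copies, gene lists and tests were chosen with earlier results of these data known. Medians were the same to 2 decimals with unread copies at their bound. Alternatives were other scalings, DESeq2 1.42.0, limma voom, other filters, the replicate number as a block, the day 5 libraries alone and each library left out. No sequences are shown.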

Additional observations from a re-analysis of the deposited data

Results flagged for a closer look

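The difference between the strains itself differed between day 5 and day 2 for 8 of the 24 copies with the largest day 5 difference. This was called by the edgeR test of the difference, which 26.4% of all copies passed. The 24 were chosen by their day 5 difference, which enters the tested difference, so nothing is read from the count. SpIB2 minus SpIB1 was larger on day 5 by 7.31 (log2) for BOP2_2, 5.10 for SPO11_3, 3.52 for CIS1 and 2.94 for DSF1_3. It was lower on day 5 than on day 2, at a difference of -4.58 for PUT4_1, -4.21 for DUR3_1, -2.86 for GIT1_1 and -2.42 for RRP12_1. The calls of DSF1_3 and RRP12_1 ended without SpIB1 replicate 1 or without SpIB2 replicate 1, which left 6.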

How the results depend on the processing

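With library totals, 13 of the 236 named called copies lost their call and none reversed. Copies numbered 1502 higher and 4863 lower, symbols summed over copies 550 and 2187, and list counts were 7 for maltose use higher, 17 for hexose transport and glucose signalling higher, 6 for glycerol and acetate higher, 5 for gluconeogenesis and glyoxylate cycle higher, 9 for beta-oxidation and peroxisome higher, 13 for TCA cycle higher, 22 for respiratory chain higher, 25 for heme and oxygen higher, 33 for sterol synthesis lower, 11 for fatty acids and lipid stores higher, 4 for aroma higher, 28 for sulfate assimilation and methionine lower, 22 for purine synthesis lower, 38 for iron lower, 7 for phosphate higher, 21 for thiamine lower, 42 for stress response higher, 14 for cell wall and flocculation higher, 22 for autophagy and vacuole higher, 30 for proteasome higher, 77 for small-subunit ribosomal proteins lower, 8 for ribosomal stalk lower, 20 for mitochondrial ribosomal proteins higher, 5 for mitochondrial import higher, 39 for RNA polymerases lower, 65 for cell cycle lower, 9 for sporulation and mating higher, 4 for multidrug and metal export higher. Other settings moved phosphate higher from 11 to 7 (mean count of at least 50), thiamine lower from 11 to 7 (replicate block), thiamine lower from 11 to 7 (called and at least 2-fold), ribosomal stalk lower from 5 to 2 (only day 5 libraries), sporulation and mating higher from 16 to 9 (mean count of at least 50), multidrug and metal export higher from 13 to 8 (only day 5 libraries). Leaving out 1 library at a time gave 13 to 22 for glycolysis and ethanol formation lower, 10 to 17 for glycerol and acetate higher, 9 to 22 for sterol synthesis lower, 4 to 9 for aroma higher, 6 to 10 for thiamine lower, 29 to 61 for small-subunit ribosomal proteins lower, 2 to 6 for ribosomal stalk lower, 6 to 16 for multidrug and metal export higher. Of log2 fold changes that did not pass the test, some changed sign. With library totals they were -0.24 for APE1 summed, -0.092 for FAS1 summed, -0.30 for GCN4_1, -0.40 for GPM1 summed, -0.072 for IMA1_1, -0.25 for IMA5_5, -0.26 for MAL13 and -0.47 for MAL31 summed. With DESeq2 they were 0.0053 for TEF1_1. With median-ratio size factors they were 0.0054 for TEF1_1. Leaving out 1 library they spanned -1.41 to 0.18 for ERG11_1, -0.33 to 1.25 for FAS1 summed, -0.14 to 0.51 for GPM1 summed, -0.27 to 0.0306 for MAL11 summed, -0.53 to 0.0102 for MAL31_3 and -0.13 to 0.0103 for TEF1_1. Whether replicate numbers pair the samples could not be told from 3 libraries per group. Deviations of same-numbered libraries from the group means correlated at -0.09, 0.16 and -0.29, and those of differently numbered libraries at -0.38 to 0.42. With the replicate number as a block 2918 copies were higher and 2596 lower, the calls of ADH1_1, MAL31_2 and MPH3 summed ended, and 7 of the 24 differences between the days passed, RRP12_1 no longer among them. The causes of these movements were not tested. Read depth bounds the scarce copies, since 3 reads over the SpIB1 group are 0.111 CPM.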
